A study of Mus musculus with 84 samples.

Results

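A set of 10 genes of nicotinamide adenine dinucleotide (NAD) metabolism was followed in liver and in epididymal white adipose tissue (eWAT) of diet-induced obese mice treated with a dual agonist or with semaglutide. They were Nampt, Nmnat1, Nmnat3, Naprt, Qprt, Nadsyn1 and Nmrk1, which take part in NAD synthesis, Cd38, which degrades NAD, and Aox1 and Aox3, which oxidize the methylated form of nicotinamide. The members were taken by symbol from a fixed list of 10, through the Ensembl identifiers of the deposited tables, and all 10, of 48794 genes listed, were found and tested in both tissues. BI456906 is an agonist of the glucagon receptor and the glucagon-like peptide-1 (GLP-1) receptor, and semaglutide is an agonist of the GLP-1 receptor. The male C57BL/6J mice, 22 weeks old at the start, had been kept on a diet with 60% fat, were housed singly and were dosed subcutaneously every day for 30 days. There were 7 groups, namely vehicle, semaglutide (20 and 100 nmol/kg) and the dual agonist (3, 10, 20 and 30 nmol/kg), and each group had 6 liver and 6 eWAT libraries out of the 11 mice randomised to it. None of the 7 groups was a lean one, so that the vehicle mice were obese as well. Single libraries are named by the number in their labels.

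NAD is an electron carrier and is also consumed by sirtuins, poly(ADP-ribose) polymerases and the glycohydrolase CD38, which release nicotinamide. Cells rebuild NAD from nicotinamide in the salvage pathway, from nicotinic acid in the Preiss-Handler pathway, from nicotinamide riboside, or from tryptophan through the de novo pathway, which is most active in liver. Nicotinamide that is not reused is methylated by nicotinamide N-methyltransferase (Nnmt) and oxidized to pyridones, which leave the body in the urine.

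Levels are given as TPM, the share of transcripts scaled to a fixed total, which corrects for gene length, and are relative to the rest of each library. Changes are log2 fold changes from limma/voom on the deposited gene values, with a standard error (SE) and a false discovery rate (FDR) over all genes tested in the tissue. A gene passed at an FDR of at most 0.05, and the study's stricter call also required a log2 fold change of at least 1 in size. In the main fits the p-values measure only the spread between libraries within groups, pooled over the 7 groups of a tissue. In whole tissue, fewer cells of a type and less RNA per cell cannot be told apart. The 6 contrasts against vehicle share the same vehicle libraries, so that they are given side by side and not as independent results. Depth was 21676902 to 53869104 recovered reads per liver library and 37573004 to 53996914 per eWAT library. Of the 8 hepatocyte markers, the summed level in eWAT ranged from 6.15 to 5959 TPM, and 9 eWAT libraries, 4 of them from vehicle mice, were over 1000 TPM. Calls in eWAT are therefore also given without these libraries where that changed them.

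With vehicle, the liver was rich in the enzymes of nicotinic acid and quinolinic acid use and in Aox3. Mean levels in liver were 118 ± 6.12 TPM (SD, n = 6) for Qprt, 93.4 ± 21.7 TPM for Aox3 and 85.8 ± 5.65 TPM for Naprt. The range of Aox3 overlapped with those of Qprt and Naprt, which lay apart from each other, and all 3 genes lay above the next gene, Nmrk1 (32.4 TPM), which overlapped with Aox1 (29.02 TPM), as did Aox1 with Nampt (23.3 TPM). Nadsyn1 (14.2 TPM) and Nmnat1 (12.7 TPM) overlapped below these, and Cd38 (6.10 TPM) and Nmnat3 (3.92 TPM) overlapped at the bottom of the order.

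In eWAT, Aox1 and Nampt led the order with means of 49.6 ± 12.7 and 42.2 ± 5.28 TPM (SD, n = 6), and their ranges overlapped. The other members followed without a gap between neighbours, from Naprt at 11.8 TPM, Cd38 at 10.1 TPM and Nmnat1 at 9.10 TPM to Nmrk1 at 8.36 TPM, Nadsyn1 at 7.34 TPM, Nmnat3 at 6.25 TPM, Aox3 at 5.73 TPM and Qprt at 5.44 TPM. Set side by side, the vehicle mean of Qprt was 21.7-fold, that of Aox3 16.3-fold and that of Naprt 7.26-fold higher in liver, whereas Nampt was 1.81-fold, Aox1 1.71-fold and Nmnat3 1.59-fold higher in eWAT. The tables of the tissues were normalized separately, so these ratios were not tested. Vehicle eWAT library 2, with the highest sum of hepatocyte markers (5959 TPM), had 11.2 TPM of Qprt, 11.05 TPM of Aox3 and 15.9 TPM of Naprt. Vehicle library 1, with the lowest vehicle sum (19.7 TPM), had 1.72, 1.65 and 8.38 TPM. The part of hepatocyte RNA in the eWAT means was not tested.

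Nampt and Aox3 are the members whose liver groups did not overlap between the compounds, chosen for display after their values were seen, and glucagon receptor signalling raises cAMP, so their promoters were read for the cAMP response element. The sequences are RefSeq promoters on GRCm38.p6, printed 5′ to 3′ on the plus strand from 250 to 11 bases upstream of the RefSeq start, at chr12:32820085-32820324 for Nampt and chr1:58112886-58113125 for Aox3. The Nampt window lies within the GENCODE gene, which starts upstream of the RefSeq start, and holds no GENCODE exon. Capitals mark the shorter form of the element, TGACG, which reads CGTCA where it lies on the minus strand.
Nampt: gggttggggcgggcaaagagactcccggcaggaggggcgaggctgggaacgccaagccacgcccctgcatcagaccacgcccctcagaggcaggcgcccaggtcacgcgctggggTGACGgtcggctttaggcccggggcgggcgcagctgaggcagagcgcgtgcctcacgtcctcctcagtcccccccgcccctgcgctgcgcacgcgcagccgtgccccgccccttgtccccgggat
Aox3: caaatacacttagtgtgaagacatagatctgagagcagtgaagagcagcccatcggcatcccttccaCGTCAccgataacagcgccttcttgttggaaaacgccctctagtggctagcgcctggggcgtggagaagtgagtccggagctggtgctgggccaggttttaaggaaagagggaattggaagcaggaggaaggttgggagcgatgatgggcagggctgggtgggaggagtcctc
Of the 10 members, 9 had a promoter entry and Naprt had none. On either strand of the 240 bases searched, TGACG was present in 3 of 9 members, Nampt (135 bases upstream), Nadsyn1 (37 bases upstream) and Aox3 (183 bases upstream, minus strand). The same 5 letters were present in 16.88% of the 32851 promoters of this length. The full palindrome TGACGTCA, which contains TGACG, was in 0 of 9 members and 1.437% of promoters, and the E-box CACGTG was in 0 of 9 members and 5.689% of promoters. These matches describe letters in a window, and binding was not measured.

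In liver, most members were lower after treatment, and the number that passed grew with the dose of BI456906. At 30 nmol/kg, 7 members fell and 1 rose, so that 8 of 10 passed, against 58.8% of the 15964 genes tested. At 3, 10 and 20 nmol/kg, 1, 5 and 7 members passed, all lower, against 13.4%, 37.5% and 45.9% of all genes. With semaglutide, 5 members passed at 20 nmol/kg and 5 at 100 nmol/kg, all lower, against 46.5% and 48.2%. Genes that passed and were lower made up 4.93%, 18.1%, 22.9% and 29.9% of all genes at 3, 10, 20 and 30 nmol/kg, and 23.5% and 24.1% at 20 and 100 nmol/kg semaglutide. Every member that passed was lower except Cd38. Over the 10 members the median log2 fold change was -0.35 at 30 nmol/kg BI456906 and -0.22 at 100 nmol/kg semaglutide, beside -0.03 and -0.02 over all genes tested.

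The slope over vehicle and the 4 doses of BI456906, per 10 nmol/kg, was negative and passed for 9 of 10 members, against 58.9% of all genes in either direction and 29.6% with a negative slope. The steepest was Aox3 at -0.43 (SE 0.05, FDR 2.68e-09), followed by Qprt and Nmnat3 at -0.17 each and Nmrk1 at -0.16. Only Cd38 had a slope above 0, at 0.04 (FDR 0.14), and 0.06 (FDR 0.0454) without library 71 of the 30 nmol/kg group. The slope of Nadsyn1, -0.06 (FDR 0.0229), was lost without any 1 of libraries 48, 67 and 71 (FDR up to 0.0689, without library 48). On log2(TPM + 1), no call remained at 10 nmol/kg. There Nmnat1 was -0.11 (FDR 0.125), Nmnat3 -0.30 (FDR 0.0794), Nadsyn1 -0.10 (FDR 0.292), Qprt -0.19 (FDR 0.111) and Aox1 -0.15 (FDR 0.332). At 20 nmol/kg the calls on Nampt (-0.12, FDR 0.198), Nadsyn1 (-0.06, FDR 0.545), Nmrk1 (-0.16, FDR 0.117) and Aox1 (-0.27, FDR 0.0538) were lost on that scale, as was that on Nadsyn1 at 100 nmol/kg semaglutide (-0.16, FDR 0.0621). The slopes of Nampt (-0.04, FDR 0.14), Nadsyn1 (-0.04, FDR 0.0739) and Naprt (-0.04, FDR 0.228) were lost as well. The groups given 30 nmol/kg and vehicle did not overlap in TPM for 2 members, Qprt and Nmnat3, against 29.4% of all genes, and those given 100 nmol/kg semaglutide and vehicle for 3 members, Qprt, Nmnat3 and Nmnat1, against 17.5%.

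**Figure D1:**
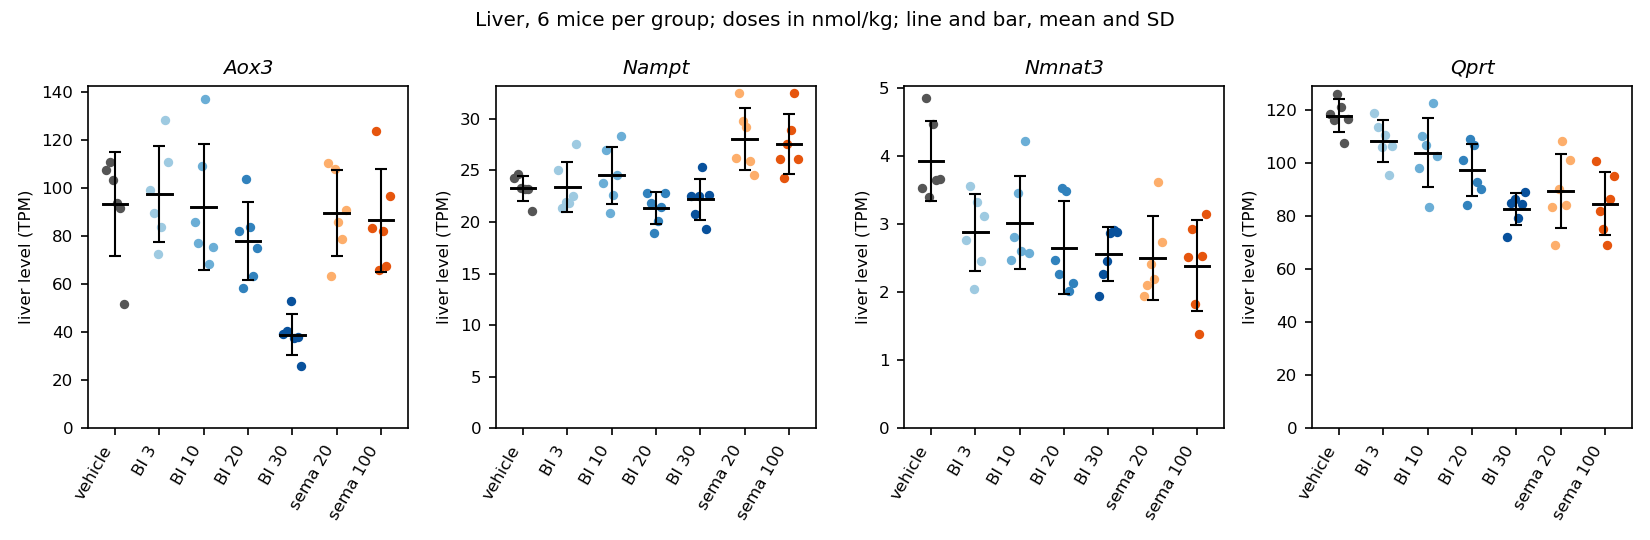
TPM (vertical axes, linear from 0) of Aox3, Nampt, Nmnat3 and Qprt in each liver library (points) by group, with a line at the mean of 6 mice and bars for its SD. Aox3 was 26.2 to 53.1 TPM at 30 nmol/kg BI456906 and 65.96 to 124 TPM with 100 nmol/kg semaglutide, and Nampt was highest in the semaglutide groups.

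Aox3 fell the most. It lies on chromosome 1 from 58113130 to 58200698 on the plus strand (GRCm38, GENCODE M21), next to Aox1, and encodes a liver aldehyde oxidase. Aox3 was 52.02, 91.7, 94.1, 104, 108 and 111 TPM in the 6 vehicle livers and 26.2, 37.6, 38.04, 39.3, 40.5 and 53.1 TPM in the 6 livers given BI456906 30 nmol/kg. The lowest vehicle liver (library 48) lay within the treated range, and 5 of the 6 treated livers were below every vehicle liver. In limma/voom this was a log2 fold change of -1.36 (SE 0.18, FDR 2.37e-08), a level 2.57-fold lower, and this was the 1 member that met the study's stricter call.

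At lower doses Aox3 stayed near vehicle, with 72.8 to 129 TPM (median 94.6) at 3 nmol/kg, 68.4 to 137 TPM (median 81.5) at 10 nmol/kg and 58.6 to 104 TPM (median 78.8) at 20 nmol/kg. All of these ranges overlapped with vehicle. At 20 nmol/kg the fit gave -0.41 (SE 0.18, FDR 0.057) on the log2 scale, and -0.53 (FDR 0.0158) without vehicle library 48 and -0.50 (FDR 0.0235) without library 63 of the 20 nmol/kg group. Semaglutide gave 63.5 to 110 TPM (median 88.5) at 20 nmol/kg and 65.96 to 124 TPM (median 82.97) at 100 nmol/kg, and neither dose passed, with log2 fold changes of -0.17 (FDR 0.454) and -0.22 (FDR 0.314).

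Aox1, the aldehyde oxidase found in most tissues, lies beside Aox3 on chromosome 1 from 58029931 to 58106413 on the plus strand. It was 21.7 to 34.5 TPM (median 30.7) in vehicle livers and 19.6 to 22.9 TPM (median 21.6) at 30 nmol/kg, with 26.96, 26.01 and 24.02 TPM as the medians at 3, 10 and 20 nmol/kg. The treated range at 30 nmol/kg was narrow and touched only the low end of vehicle. Aox1 fell by 0.37 on the log2 scale at 30 nmol/kg (SE 0.09, FDR 0.000554) and by 0.32 at 20 nmol/kg (FDR 0.00387). At 10 nmol/kg it fell by 0.23 (FDR 0.0432), a call that was lost when any of 9 of the 12 libraries was left out (FDR up to 0.134, without vehicle library 45). With semaglutide the values were -0.20 (FDR 0.0628) at 20 nmol/kg, which passed without any 1 of libraries 47, 48, 74 and 75, and -0.09 (FDR 0.441) at 100 nmol/kg. Aox1 and Aox3 are paralogs in tandem, and reads from similar stretches could be assigned to either gene or dropped by the counting.

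Nampt encodes the rate-limiting enzyme of salvage, which joins nicotinamide to phosphoribose, and lies on chromosome 12 from 32819545 to 32853349 on the plus strand. It was 21.1 to 24.6 TPM (median 23.2) in vehicle livers, 18.9 to 22.8 TPM (median 21.7) at 20 nmol/kg and 19.3 to 25.3 TPM (median 22.5) at 30 nmol/kg BI456906. With semaglutide it was 24.5 to 32.5 TPM (median 27.7) at 20 nmol/kg and 24.2 to 32.5 TPM (median 26.8) at 100 nmol/kg. The semaglutide groups thus lay almost wholly above vehicle in TPM, and the BI456906 groups did not. In the fit Nampt fell at 20 nmol/kg BI456906 by 0.22 on the log2 scale (SE 0.07, FDR 0.0145, and FDR 0.0524 without library 64), whereas its value at 30 nmol/kg was -0.14 (FDR 0.109). With library size alone as the scaling, Nampt at 30 nmol/kg was -0.20 and passed (FDR 0.0173). Its dose slope of -0.06 (FDR 0.0217) was lost without library 68 (-0.05, FDR 0.0515) or library 71 (-0.04, FDR 0.12) of the 30 nmol/kg group.

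For semaglutide the log2 fold change of Nampt was 0.17 at both 20 nmol/kg (SE 0.08, FDR 0.0576) and 100 nmol/kg (SE 0.08, FDR 0.0583), just short of the threshold. It also passed at 20 nmol/kg without any 1 of libraries 44, 47, 77 and 78 and at 100 nmol/kg without any 1 of libraries 44, 47, 80 and 84. It passed with edgeR on recovered reads (FDR 0.0434 and 0.0437), with DESeq2 (FDR 0.0413 and 0.0407) and on log2(TPM + 1), where it was 0.25 (FDR 0.00585) and 0.23 (FDR 0.0112). With library size alone as the scaling it was 0.14 (FDR 0.107) and 0.12 (FDR 0.167).

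Nmnat1 and Nmnat3 encode enzymes that complete NAD from the mononucleotide by adding an adenylate group, in the nucleus and, for Nmnat3, mainly in mitochondria. Nmnat1 lies on chromosome 4 from 149467572 to 149485202 on the minus strand and was 11.4 to 13.8 TPM (median 13.2) in vehicle livers. It was 9.70 to 12.2 TPM at 3 nmol/kg, 10.4 to 12.99 TPM at 10 nmol/kg, 9.72 to 11.5 TPM at 20 nmol/kg and 9.55 to 11.6 TPM at 30 nmol/kg BI456906, and 10.0 to 12.7 and 10.3 to 11.3 TPM with semaglutide at 20 and 100 nmol/kg. All 6 treated groups were lower, and the 100 nmol/kg semaglutide group lay wholly under vehicle. In limma/voom with all groups, Nmnat1 was the 1 member that passed in every treated group, with log2 fold changes of -0.22 at 3 nmol/kg (SE 0.06, FDR 0.00996), -0.22 at 10 nmol/kg (FDR 0.00216), -0.33 at 20 nmol/kg and -0.32 at 30 nmol/kg (SE 0.06, FDR 1.23e-05). With only the groups compared, the call at 3 nmol/kg was lost (-0.22, FDR 0.112), and on log2(TPM + 1) that at 10 nmol/kg (-0.11, FDR 0.125). Both semaglutide doses gave -0.30 (SE 0.06, FDR 6.19e-05 at 20 nmol/kg and 6.05e-05 at 100 nmol/kg), and the compounds differed by -0.02 (95% confidence interval -0.14 to 0.10) at their highest doses.

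Nmnat3, on chromosome 9 from 98287435 to 98420438 on the plus strand, was 3.39 to 4.85 TPM (median 3.65) in vehicle livers. At 3, 10, 20 and 30 nmol/kg BI456906 its medians were 2.94, 2.71, 2.37 and 2.67 TPM, and at 30 nmol/kg its range of 1.95 to 2.91 TPM lay under vehicle. Semaglutide gave 1.94 to 3.62 TPM (median 2.30) at 20 nmol/kg and 1.38 to 3.14 TPM (median 2.52) at 100 nmol/kg, and the latter range was also wholly under vehicle. Nmnat3 fell by 0.67 on the log2 scale at 30 nmol/kg BI456906 (SE 0.17, FDR 0.000925), by 0.79 at 20 nmol/kg semaglutide (FDR 0.000312) and by 0.69 at 100 nmol/kg semaglutide (FDR 0.00106). It passed at 20 nmol/kg BI456906 as well (-0.59, FDR 0.00379). The call at 10 nmol/kg (-0.46, FDR 0.026) was lost without any 1 of libraries 44, 48, 56, 58 and 60 (FDR up to 0.077, without library 60), and at 3 nmol/kg the value was -0.46 (FDR 0.057), which passed without library 50 (-0.53, FDR 0.0277) or library 52.

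Qprt encodes the enzyme that turns quinolinic acid, the product of tryptophan breakdown, into nicotinic acid mononucleotide, and lies on chromosome 7 from 127107114 to 127122226 on the minus strand. It was 108 to 126 TPM (median 118) in vehicle livers and fell step by step in the medians with BI456906, to 108, 105, 96.9 and 84.6 TPM at 3, 10, 20 and 30 nmol/kg. At 30 nmol/kg the range was 72.2 to 88.9 TPM and lay wholly under vehicle. With semaglutide Qprt was 69.1 to 108 TPM (median 87.1) at 20 nmol/kg and 68.9 to 100.5 TPM (median 84.2) at 100 nmol/kg, close to the level at 30 nmol/kg BI456906. The log2 fold changes were -0.31 (FDR 0.00892), -0.39 (FDR 0.000857) and -0.59 (SE 0.09, FDR 1.24e-06) at 10, 20 and 30 nmol/kg BI456906, and -0.51 (FDR 2.88e-05) and -0.56 (SE 0.09, FDR 6.86e-06) at 20 and 100 nmol/kg semaglutide. At 3 nmol/kg it was -0.17 (FDR 0.231), and the difference between the compounds at their highest doses was -0.03 (95% confidence interval -0.22 to 0.16).

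Naprt encodes the first enzyme of the Preiss-Handler pathway, which acts on nicotinic acid, and lies on chromosome 15 from 75890956 to 75894481 on the minus strand. It was 79.6 to 93.8 TPM (median 85.5) in vehicle livers, with medians of 93.8, 100.3 and 100.1 TPM at 3, 10 and 20 nmol/kg BI456906 and 77.3 TPM (range 72.3 to 92.0) at 30 nmol/kg. With semaglutide the medians were 102 and 92.6 TPM (20 and 100 nmol/kg). Every treated range overlapped with vehicle, and no contrast of Naprt against vehicle passed in limma/voom, with log2 fold changes from -0.20 (FDR 0.064) at 30 nmol/kg BI456906 to 0.12 (FDR 0.312) at 20 nmol/kg semaglutide. On log2(TPM + 1) the value at 20 nmol/kg semaglutide was 0.24 and passed (FDR 0.0306), and with library size alone that at 30 nmol/kg was -0.26 and passed (FDR 0.0166). The value at 30 nmol/kg also passed without library 43 (FDR 0.0478) or library 70 (FDR 0.0432). Its dose slope of -0.06 passed (FDR 0.0345), but the call was lost when any of 11 of the 30 libraries was left out (FDR up to 0.0998, without library 71 of the 30 nmol/kg group). Naprt shares 277 exon bases with Eef1d, a translation factor gene on the same strand with a mean of 135 TPM in liver, and reads there could be counted for either gene.

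Nadsyn1 encodes NAD synthetase, which amidates the last intermediate of the nicotinic acid and de novo routes, and lies on chromosome 7 from 143795584 to 143822849 on the minus strand. It was 13.1 to 15.4 TPM (median 14.2) in vehicle livers, 11.6 to 13.8 TPM (median 12.6) at 30 nmol/kg BI456906, and 10.7 to 15.7 TPM (median 11.6) and 11.1 to 13.5 TPM (median 12.8) with semaglutide at 20 and 100 nmol/kg. The changes were small and the ranges overlapped. Nadsyn1 fell by 0.19 on the log2 scale at 30 nmol/kg (SE 0.08, FDR 0.0278), by 0.25 at 20 nmol/kg semaglutide (FDR 0.0068, and FDR 0.0757 with only the groups compared) and by 0.21 at 100 nmol/kg semaglutide (FDR 0.0233). The call at 30 nmol/kg was lost without any 1 of libraries 46, 47, 48, 67 and 71 (-0.13 and FDR 0.126 without vehicle library 48). The call at 100 nmol/kg semaglutide was lost without library 48 (-0.15, FDR 0.105) or library 82 (-0.15, FDR 0.104), and the calls at 10 nmol/kg (-0.19, FDR 0.0432) and 20 nmol/kg BI456906 (-0.21, FDR 0.0265) were lost in 8 and 5 of 12 such fits, again most without library 48 (-0.13 and FDR 0.18, and -0.14 and FDR 0.124).

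Nmrk1 encodes the kinase of nicotinamide riboside and lies on chromosome 19 from 18631950 to 18652428 on the plus strand. It was 26.4 to 38.2 TPM (median 32.6) in vehicle livers, 26.1 to 32.9 TPM (median 28.3) at 20 nmol/kg and 20.6 to 31.9 TPM (median 24.8) at 30 nmol/kg BI456906, and 26.2 to 29.6 TPM (median 27.4) and 24.5 to 29.8 TPM (median 26.3) with semaglutide. The medians at 30 nmol/kg and at 100 nmol/kg semaglutide were below the lowest vehicle liver, and all ranges overlapped with vehicle. Nmrk1 fell by 0.50 on the log2 scale at 30 nmol/kg (SE 0.09, FDR 1.18e-05) and by 0.32 at 20 nmol/kg BI456906 (FDR 0.0044, but -0.16 and FDR 0.117 on log2(TPM + 1)), and with semaglutide by 0.31 at 20 nmol/kg (FDR 0.0048) and 0.38 at 100 nmol/kg (FDR 0.000724). At 3 and 10 nmol/kg it was -0.10 (FDR 0.511) and -0.16 (FDR 0.161).

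Cd38, whose product cleaves NAD at the cell surface, lies on chromosome 5 from 43868553 to 43912375 on the plus strand. It was 4.61 to 7.20 TPM (median 6.27) in vehicle livers and 6.44 to 7.96 TPM (median 7.34) at 30 nmol/kg BI456906, and the ranges overlapped. Its rise of 0.20 (log2, SE 0.09, FDR 0.0473) was a call lost without any 1 of libraries 46, 47, 48, 67, 68 and 69 (0.16 and FDR 0.128 without vehicle library 48) and with library size alone (0.14, FDR 0.173). No other dose of either compound passed for Cd38, with values from -0.04 (FDR 0.76) at 20 nmol/kg semaglutide to 0.15 (FDR 0.171) at 10 nmol/kg BI456906.

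Markers of cell types differed between these livers as well. The summed level of the 8 hepatocyte markers was 70275 to 84115 TPM with vehicle and 89101 to 104229 TPM at 30 nmol/kg BI456906, where 6 markers rose and 2 fell, and 82318 to 111507 TPM at 100 nmol/kg semaglutide, where 6 rose and 1 fell. The sum at 30 nmol/kg thus lay above vehicle, and that at 100 nmol/kg semaglutide overlapped with it. Of the 5 stromal markers 4 fell and 1 rose at 30 nmol/kg, with sums of 137 to 288 TPM with vehicle and 118 to 191 TPM at that dose, and the 4 of 7 adipocyte markers that were tested all fell. Of the 9 macrophage markers 1 rose and 2 fell, with sums of 236 to 444 TPM with vehicle and 180 to 340 TPM at 30 nmol/kg. The part of these differences in the results on the members was not tested.

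Between the compounds, the liver contrast at their highest doses, 30 nmol/kg BI456906 against 100 nmol/kg semaglutide, compares unequal doses. In it 3 members passed, all lower with BI456906, against 9.75% of all genes in either direction and 5.59% that were lower. Aox3 was lower by a log2 difference of -1.14 (SE 0.17, 95% confidence interval -1.49 to -0.79, FDR 2.52e-05), 2.20-fold, and its groups did not overlap, which held for 1 of 10 members and 2.94% of all genes. Nampt was lower by -0.31 (95% confidence interval -0.46 to -0.16, FDR 0.00601). Aox1 was lower by -0.29 (FDR 0.0377), a call that was lost when any of 9 of the 12 libraries was left out (FDR up to 0.103, without library 82), on log2(TPM + 1) (FDR 0.0798) or with library size alone (FDR 0.0769). Naprt was short of the threshold at -0.27 (95% confidence interval -0.46 to -0.08, FDR 0.056), and it passed without library 70 (-0.30, FDR 0.0382) or library 81 (-0.30, FDR 0.0316), and with DESeq2 (-0.27, FDR 0.0447).

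At the equal dose of 20 nmol/kg, 1 of 10 members passed in liver, against 2.42% of all genes in either direction and 1.51% that were lower with BI456906. This was Nampt, at 18.9 to 22.8 TPM with BI456906 and 24.5 to 32.5 TPM with semaglutide. These groups did not overlap, and the share of all genes for which that holds at this dose is not given. The log2 difference was -0.39 (SE 0.08, 95% confidence interval -0.55 to -0.24, FDR 0.00142), so that Nampt was 1.31-fold higher with semaglutide. The other members had differences between -0.24 (Aox3, 95% confidence interval -0.60 to 0.12) and 0.19 (Nmnat3, 95% confidence interval -0.18 to 0.57). The intervals for Qprt (-0.06 to 0.31) and Nmrk1 (-0.19 to 0.18) leave room for differences of that size only.

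**Figure D2:**
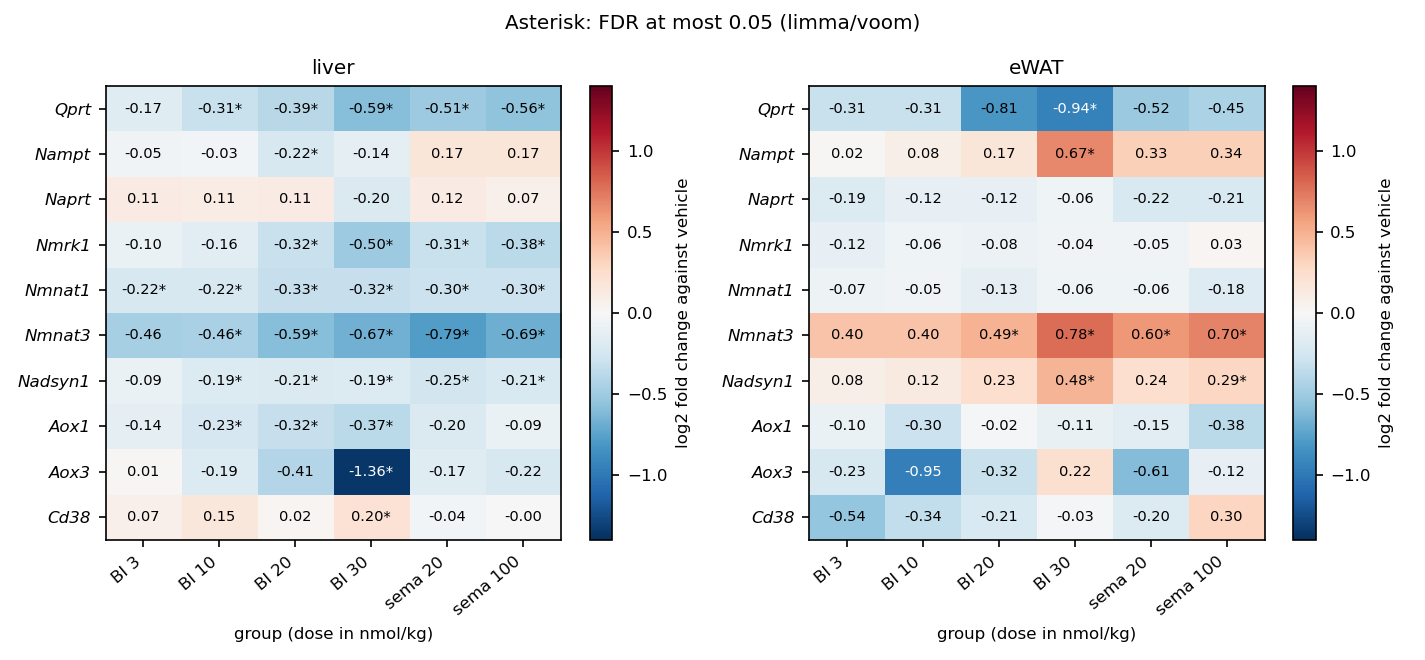
Log2 fold change against vehicle of the 10 genes (rows) at each dose of BI456906 and semaglutide (columns), in liver and eWAT, as a colour scale with each value printed and an asterisk where the FDR was at most 0.05. Liver values are mostly below 0, with Aox3 at -1.36 at 30 nmol/kg, whereas in eWAT Nmnat3 was above 0 in each treated group.

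In eWAT fewer members passed. At 30 nmol/kg BI456906, Nmnat3, Nampt and Nadsyn1 rose and Qprt fell, so that 4 of 10 members passed, against 23.9% of the 18536 genes tested. At 20 nmol/kg 1 member passed (4.27% of all genes), with semaglutide 1 passed at 20 nmol/kg (6.33%) and 2 at 100 nmol/kg (14.9%), and none met the study's stricter call. At 3 and 10 nmol/kg 0 members passed with limma/voom, against 0.00539% and 0.513% of all genes. At an unadjusted p under 0.05 there were 1 and 2 members at these doses, DESeq2 passed 1 at each and edgeR 0. No share of all genes is given for these further counts. The slope over dose passed for 4 members, 3 of them rising, against 29.5% of all genes.

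**Figure D3:**
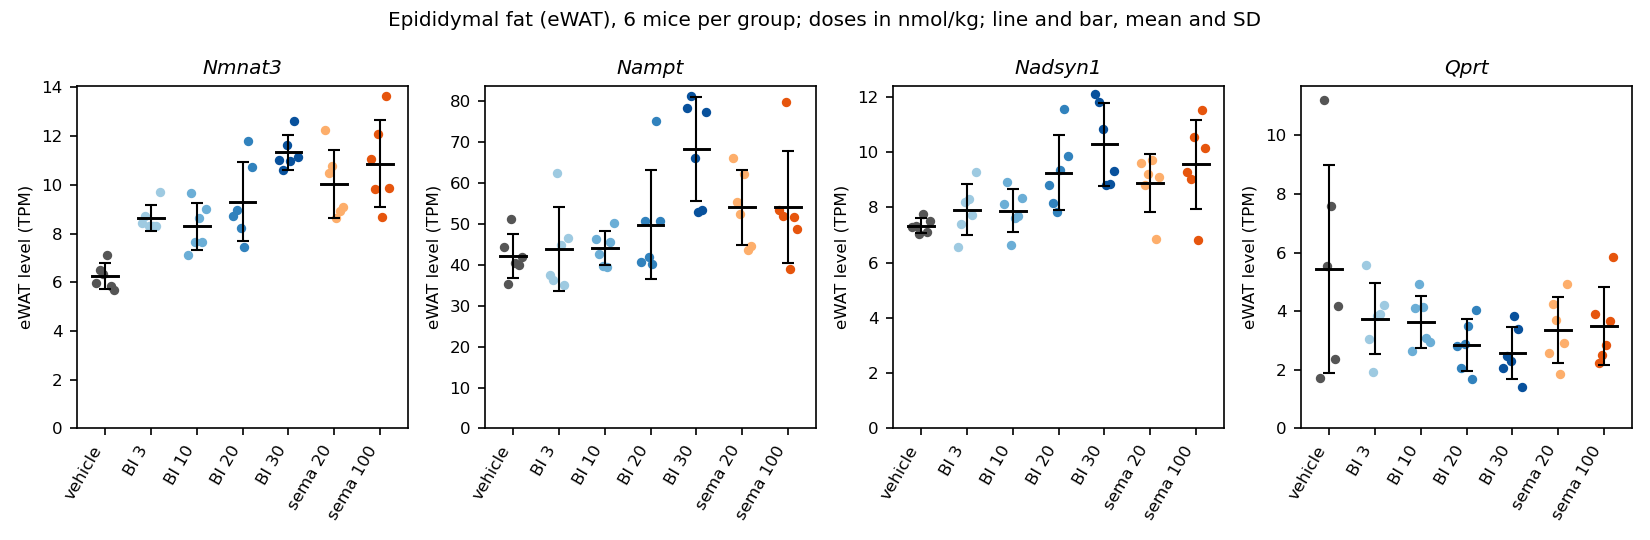
TPM (vertical axes, linear from 0) of Nmnat3, Nampt, Nadsyn1 and Qprt in each eWAT library (points) by group, with a line at the mean of 6 mice and bars for its SD. The lowest treated value of Nmnat3 in any group (7.14 TPM) lay just above the highest vehicle value (7.13 TPM).

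Nmnat3 was 5.70 to 7.13 TPM (median 6.16) in vehicle eWAT. It was 8.30 to 9.70 TPM (median 8.39) at 3 nmol/kg, 7.14 to 9.67 TPM (median 8.15) at 10 nmol/kg, 7.46 to 11.8 TPM (median 8.84) at 20 nmol/kg and 10.6 to 12.6 TPM (median 11.1) at 30 nmol/kg BI456906. With semaglutide it was 8.62 to 12.2 TPM (median 9.80) at 20 nmol/kg and 8.70 to 13.7 TPM (median 10.5) at 100 nmol/kg. All treated libraries thus lay above all vehicle libraries, by a margin that was slight at 10 nmol/kg, and the gene moved in the opposite direction to liver. The share of all genes clear of vehicle was 6.31% at 30 nmol/kg BI456906 and 3.4% at 100 nmol/kg semaglutide. It is not given for the other treated groups. Nmnat3 rose by 0.78 on the log2 scale at 30 nmol/kg (SE 0.11, FDR 4.72e-06), 0.49 at 20 nmol/kg (FDR 0.00812), 0.60 at 20 nmol/kg semaglutide (FDR 0.000689) and 0.70 at 100 nmol/kg semaglutide (FDR 3.84e-05). At 3 and 10 nmol/kg the value was 0.40 at each dose (FDR 0.285 and 0.085), and it passed with DESeq2 (FDR 0.0348 and 0.0189). At 10 nmol/kg it also passed in limma/voom without library 1, 13 or 15 (FDR 0.0219 to 0.0442).

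Nampt in eWAT was 35.3 to 51.1 TPM (median 41.2) with vehicle and 52.99 to 81.3 TPM (median 71.7) at 30 nmol/kg BI456906. The medians were 41.2, 44.1 and 46.3 TPM at 3, 10 and 20 nmol/kg, and 53.9 and 51.9 TPM with semaglutide at 20 and 100 nmol/kg. Only the 30 nmol/kg group was clear of vehicle, and single libraries reached 75.1 TPM (library 23) at 20 nmol/kg and 79.8 TPM (library 39) at 100 nmol/kg semaglutide. At 30 nmol/kg Nampt rose 1.59-fold, or 0.67 in log2 units (SE 0.15, FDR 0.00191). With semaglutide it was 0.33 (FDR 0.193) at 20 nmol/kg and 0.34 (95% confidence interval 0.03 to 0.64, FDR 0.121) at 100 nmol/kg.

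Nadsyn1 in eWAT was 7.03 to 7.76 TPM (median 7.31) with vehicle and 8.79 to 12.1 TPM (median 10.1) at 30 nmol/kg, where the groups did not overlap. Its rise was 1.39-fold, or 0.48 in log2 units (SE 0.09, FDR 0.000276). With 100 nmol/kg semaglutide, at 6.82 to 11.5 TPM (median 9.71), it rose by 0.29 (SE 0.09, FDR 0.0292), but this call was lost when any of 8 of the 12 libraries was left out (0.24 and FDR 0.0992 without library 41). It was also lost without the 9 libraries over 1000 TPM of hepatocyte markers (0.21, FDR 0.444), without the 2 libraries over 500 TPM of B and plasma cell markers (0.28, FDR 0.0637) and with only the groups compared (0.28, FDR 0.165). At 20 nmol/kg semaglutide the value was 0.24 (FDR 0.118), and 0.31 (FDR 0.0438) without library 35.

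At 30 nmol/kg, 3 of 10 members had eWAT groups clear of vehicle, against 6.31% of all genes, and at 100 nmol/kg semaglutide 1 of 10, against 3.4%. Nampt, Nmnat3 and Nadsyn1 varied together across the 42 eWAT libraries, with Spearman correlations of 0.75 between Nampt and Nadsyn1, 0.75 between Nmnat3 and Nadsyn1 and 0.69 between Nampt and Nmnat3. Within groups, after removing the group means, these were 0.60, 0.44 and 0.30. These values describe libraries that share treatment and tissue composition, and no p is given. In liver the highest such correlations were 0.68 between Qprt and Nadsyn1 and 0.65 between Qprt and Nmnat3, and Nampt and Nadsyn1 had -0.24.

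Qprt in eWAT was 1.72 to 11.2 TPM (median 4.87) with vehicle and 1.42 to 3.83 TPM (median 2.38) at 30 nmol/kg, and these ranges overlapped. The log2 fold change was -0.94 (SE 0.35, FDR 0.0438), and the hepatocyte markers differed between these groups too. The summed level of the 8 markers was 19.7 to 5959 TPM (median 1588) in vehicle eWAT, 19.7 to 1020 TPM (median 108) at 30 nmol/kg and 6.15 to 1292 TPM (median 89.2) at 100 nmol/kg semaglutide, and 3 of the 8 fell at 30 nmol/kg. Over the 42 eWAT libraries the Spearman correlation with this sum was 0.55 for Qprt and 0.59 for Naprt, as a description. The part of hepatocyte RNA in these values was not tested. Without the 9 libraries over 1000 TPM of these markers, which leaves 2 vehicle libraries, the value for Qprt was 0.19 (FDR 0.847), so that the direction turned. The call was also lost without any 1 of libraries 2, 3, 4, 6, 25, 26, 27 and 30, most without vehicle library 2 (-0.66, FDR 0.148). At 20 nmol/kg the value for Qprt was -0.81 (FDR 0.163), and -1.07 (FDR 0.0325) without vehicle library 1, and it passed with edgeR (-1.03, FDR 0.0484) and DESeq2 (-1.03, FDR 0.023). The dose slope of Qprt, -0.30 (FDR 0.0229), was -0.04 (FDR 0.851) without the 9 libraries, and was also lost without library 25 or 30. Without the 9 libraries the values for Qprt in the other treated groups, none of which had passed, were above 0 as well, from 0.34 at 20 nmol/kg BI456906 to 0.74 at 10 nmol/kg.

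The rises kept their direction without these libraries, and some lost their call. In that fit Nmnat3 had a log2 fold change of 0.86 (FDR 0.00439) at 30 nmol/kg and 0.82 (FDR 0.00663) at 100 nmol/kg semaglutide, and at 20 nmol/kg BI456906 0.58 (FDR 0.148). Nampt kept its size at 0.67 but not its call (FDR 0.097), and Nadsyn1 was 0.38 (FDR 0.114), in a fit with 2 vehicle libraries. Vehicle libraries 1 and 3 also held over 500 TPM of 6 B and plasma cell markers, and without them Nampt was 0.76, Nmnat3 0.76, Nadsyn1 0.47 and Qprt -1.19, all of which passed. All 3 mesothelial markers rose at 30 nmol/kg, with sums of 8.06 to 69.8 TPM with vehicle and 37.6 to 124 TPM at that dose, and 1 of the 7 adipocyte markers fell. The sums of neutrophil markers were 10.7 to 19.6 TPM with vehicle and 4.44 to 9.03 TPM at 30 nmol/kg. The median sums of stromal markers were 2166 and 2800 TPM. Of the 6 B and plasma cell markers 2 fell, and 0 of 9 macrophage markers passed. The part of these differences in the rises was not tested.

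**Figure D4:**
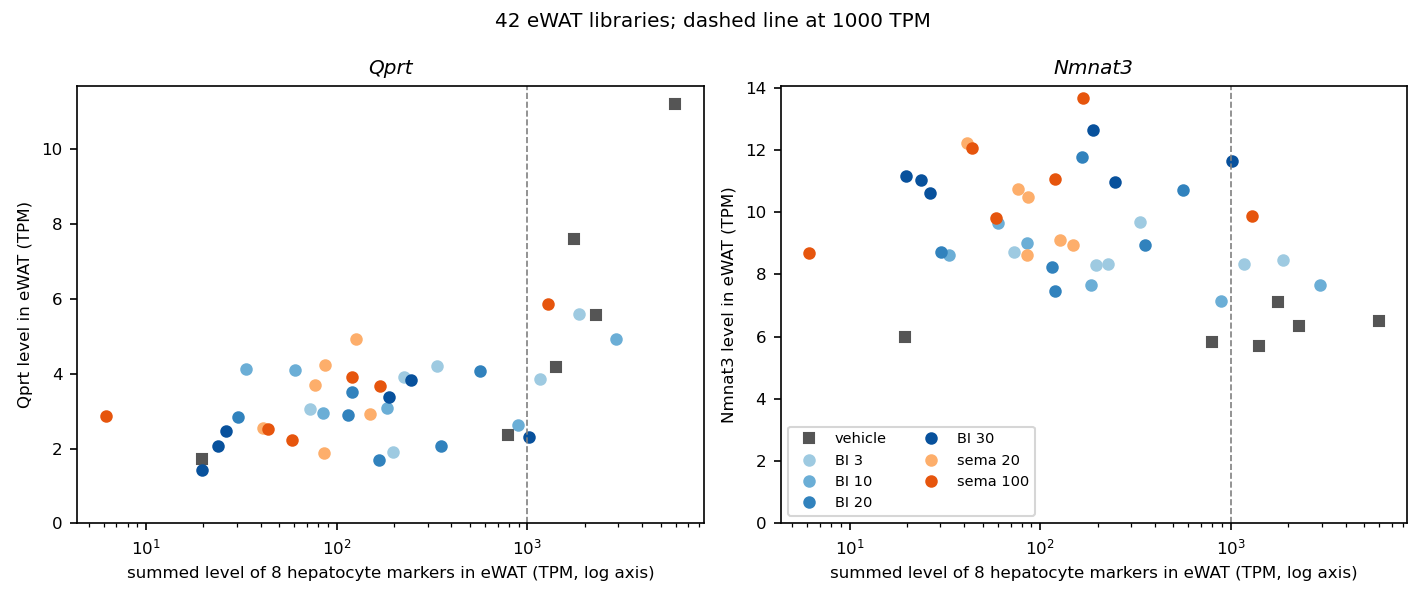
TPM of Qprt and of Nmnat3 in each of the 42 eWAT libraries (vertical axes) against the summed TPM of 8 hepatocyte markers (horizontal axes, log scale), coloured by group, with a dashed line at 1000 TPM. Qprt was highest, up to 11.2 TPM, in vehicle libraries with high marker sums, whereas Nmnat3 was 5.70 to 7.13 TPM in vehicle libraries at low and at high sums.

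The other members in eWAT did not pass in any contrast in limma/voom with all libraries. Nmnat1 was 7.38 to 11.2 TPM and Nmrk1 6.97 to 11.1 TPM over all groups, and their log2 fold changes lay between -0.18 (Nmnat1 at 100 nmol/kg semaglutide, FDR 0.067) and 0.03. Without vehicle library 4 that value for Nmnat1 was -0.22 (FDR 0.0334), and with DESeq2 on all libraries it was -0.18 (FDR 0.0389). Naprt was 8.38 to 15.9 TPM, and its overlap with Eef1d (222 TPM in eWAT) applies here too. At 100 nmol/kg semaglutide Naprt was -0.21, and -0.31 (FDR 0.0486) without vehicle library 1. Without the 2 libraries high in B and plasma cell markers, Naprt passed at 20 nmol/kg (-0.35, FDR 0.0379) and 100 nmol/kg semaglutide (-0.34, FDR 0.0268). Aox1 was 38.02 to 68.2 TPM (median 42.95) with vehicle and 23.6 to 56.3 TPM (median 36.7) at 100 nmol/kg semaglutide, with a log2 fold change of -0.38 (95% confidence interval -0.75 to -0.01, FDR 0.158).

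Aox3 was scarce in eWAT and variable within groups, at 1.65 to 11.1 TPM (median 5.51) with vehicle and 2.89 to 8.67 TPM (median 7.30) at 30 nmol/kg BI456906, where its log2 fold change was 0.22 (95% confidence interval -0.50 to 0.95, FDR 0.687). Cd38 was 7.15 to 19.1 TPM (median 8.23) with vehicle and 7.31 to 42.5 TPM (median 8.85) at 100 nmol/kg semaglutide. Its highest values stood in libraries with immune markers. Library 40 of that group, with 42.5 TPM of Cd38, had 461 TPM of 4 neutrophil markers, and vehicle library 3, with 19.1 TPM, had 804 TPM of 6 B and plasma cell markers. The part of these cells in the Cd38 values was not tested.

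Between the compounds in eWAT, 0 of 10 members passed at the highest doses (limma/voom), against 0.0108% of all genes. There were 2 at an unadjusted p under 0.05 and 0 with edgeR or DESeq2, with no share of all genes given. No member's groups were clear of each other, against 0.869% of all genes. The differences were 0.33 for Nampt (95% confidence interval 0.01 to 0.65, FDR 0.188), 0.19 for Nadsyn1 (0.01 to 0.36, FDR 0.181) and 0.08 for Nmnat3 (-0.11 to 0.28, FDR 0.603). At the equal dose of 20 nmol/kg 0 of 10 members and 0% of all genes passed, with 0 members at an unadjusted p under 0.05 and 0 with edgeR or DESeq2. The interval for Nampt there was -0.46 to 0.15 and for Nmnat3 -0.32 to 0.09.

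Liver and eWAT were compared by the interaction of tissue and treatment in a joint fit of the 84 libraries over 15297 genes. The labels do not say which libraries come from the same mouse, so they were treated as separate. At 30 nmol/kg BI456906 the change differed between tissues for 6 of 10 members, against 46.3% of all genes, and each was lower in liver than in eWAT. The log2 differences were -1.70 for Aox3 (SE 0.40, FDR 0.00026), -1.55 for Nmnat3 (SE 0.20, FDR 1.18e-09), -0.92 for Nampt (FDR 6.24e-06), -0.77 for Nadsyn1 (FDR 1.84e-07), -0.57 for Nmrk1 (FDR 0.00028) and -0.37 for Nmnat1 (FDR 0.00031). At 100 nmol/kg semaglutide it differed for 3 of 10, against 33.8%, namely Nmnat3 at -1.43 (FDR 8.07e-08), Nadsyn1 at -0.55 (FDR 0.000335) and Nmrk1 at -0.47 (FDR 0.00445).

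Without the 9 eWAT libraries over 1000 TPM of hepatocyte markers, the interaction was lost for Nmnat1 at 30 nmol/kg (-0.26, FDR 0.0622) and for Nadsyn1 at 100 nmol/kg semaglutide (-0.39, FDR 0.0696). It was gained for Qprt at 100 nmol/kg semaglutide (-1.05, FDR 0.034), and for Qprt at 30 nmol/kg it turned from 0.22 (FDR 0.596) to -0.78 (FDR 0.102). Aox3 at 30 nmol/kg had -2.24 (FDR 0.000572).

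**Figure D5:**
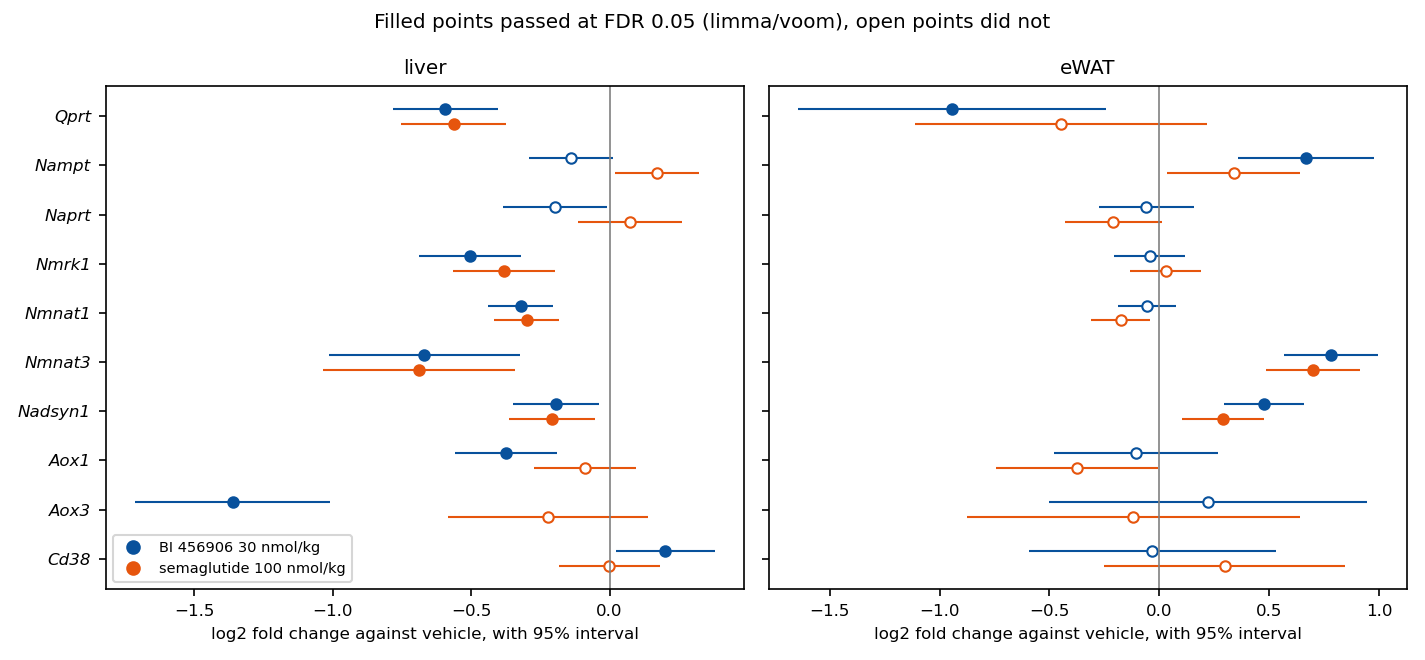
Log2 fold change of the 10 genes at 30 nmol/kg BI456906 and 100 nmol/kg semaglutide against vehicle in liver and eWAT, with 95% confidence intervals as horizontal lines and filled points where the FDR was at most 0.05. Nmnat3 was at -0.67 in liver and 0.78 in eWAT with BI456906, and Aox3 in liver was at -1.36 with BI456906 and -0.22 with semaglutide.

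Around the 10 members, 39 further genes of NAD metabolism were listed and 38 of them had a row, of which 33 were tested in liver and 34 in eWAT. In liver 19 of the 33 passed at 30 nmol/kg BI456906 (7 up, 12 down) and 13 at 100 nmol/kg semaglutide (7 up, 6 down), with medians of -0.06 at both, beside the backgrounds of 58.8% and 48.2% given above. In the pathway from tryptophan, Tdo2, its first enzyme in liver, rose by 1.00 on the log2 scale (FDR 0.000125), and Acmsd, which diverts the pathway away from quinolinic acid and thus from Qprt, rose by 1.71 (FDR 9.4e-07). Vehicle livers had 2.55 to 5.64 TPM of Acmsd, those given 30 nmol/kg had 8.06 to 12.8 TPM, and those given 100 nmol/kg semaglutide had 4.61 to 10.2 TPM, where it rose by 1.07 (FDR 0.00157). Ido2, another dioxygenase, fell by 0.80, Kmo by 0.24, Aadat by 0.28 and Haao, which makes the precursor of quinolinic acid, by 0.28, while Kyat1, an aminotransferase, rose by 0.82.

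In methylation and transport, Nnmt rose by 2.49 in liver (FDR 3.04e-09), and Slc25a51, the mitochondrial NAD carrier, rose by 1.94 (FDR 8.09e-10). Vehicle livers had 24.4 to 45.04 TPM of Slc25a51, those given 30 nmol/kg had 125 to 183 TPM and those given 100 nmol/kg semaglutide had 57.9 to 157 TPM, and it was higher with BI456906 than with semaglutide at the highest doses by 0.98 (FDR 0.00234). Slc12a8, reported as a transporter of nicotinamide mononucleotide, was scarce, at 0.200 to 0.800 TPM with vehicle, and fell by 1.18 (FDR 0.00699). Cyp2e1, which can oxidize nicotinamide, fell by 0.36 (FDR 0.00639), the repair enzyme gene Naxe by 0.46 and the NAD kinase gene Nadk by 0.22, and Nudt12, an NAD(H) hydrolase, rose by 0.18.

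Among the consumers, the mitochondrial sirtuin Sirt5 was 10.8 to 14.8 TPM with vehicle and 4.33 to 6.44 TPM at 30 nmol/kg, and fell by 1.26 on the log2 scale (FDR 7.82e-10). Sirt5 also fell by 0.95 with 100 nmol/kg semaglutide (FDR 3.2e-07). The other mitochondrial sirtuins Sirt3 and Sirt4 fell by 0.32 and 0.37 at 30 nmol/kg, and the nuclear Sirt1 rose by 0.72 (FDR 1.06e-08), from 3.39 to 4.46 TPM with vehicle to 6.00 to 7.06 TPM. Parp1 fell by 0.25. Between the compounds 6 of the 33 passed in liver at the highest doses, 2 higher and 4 lower with BI456906. Over all genes, 9.75% passed there in either direction, and 5.59% passed and were lower. At the equal dose of 20 nmol/kg 2 of the 33 passed, against 2.42% of all genes.

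In eWAT, 10 of the 34 passed at 30 nmol/kg (3 up, 7 down) and 9 at 100 nmol/kg semaglutide (2 up, 7 down), beside 23.9% and 14.9% of all genes. With only the groups compared, 2 passed at 100 nmol/kg semaglutide, and no share of all genes is given for that fit. The falls were mainly in tryptophan breakdown, with log2 fold changes of -3.68 for Ido2, -3.49 for Aadat, -2.95 for Kynu, -2.45 for Haao, -2.06 for Kmo and -0.81 for Afmid, and Parp1 at -0.22. Kmo was 3.17 to 13.8 TPM with vehicle and 0.800 to 2.07 TPM at 30 nmol/kg, and Haao 3.48 to 35.5 TPM and 0.980 to 6.03 TPM. The pathway from tryptophan is most active in liver, and the median sum of the hepatocyte markers was also lower at 30 nmol/kg than with vehicle. The part of hepatocyte RNA in these falls was not tested. Without the 9 libraries high in those markers, 3 of the 34 passed at 30 nmol/kg, and 1 at 100 nmol/kg semaglutide. Those at 30 nmol/kg were Kmo at -1.55 (FDR 0.0212), Kynu at -2.01 (FDR 0.0363) and Haao at -1.74 (FDR 0.011). No share of all genes is given for that fit. Sirt1 rose in eWAT by 0.36 (FDR 0.000241), Nt5e, which can produce nicotinamide riboside outside the cell, by 0.91 (FDR 0.0395) and Sirt2 by 0.24 (FDR 0.00809).

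The genes most like the 3 members with the largest passing changes at 30 nmol/kg were sought in each tissue by Spearman correlation of TPM over 42 libraries. For Aox3 in liver they included Cmtm6 and Dhdh (0.83 each). For Nmnat3 in liver they were Slc25a10 (0.82), Mnat1 and Stoml1 (0.80 each), and for Qprt Gapdh, Tpi1 and Prdx3 (0.89 each). In eWAT they were Abcb4 (0.86), Hc (0.78) and Slc25a13 (0.77) for Qprt, Slc25a30 (0.87), Lrrc47 (0.84) and Tcp11l2 (0.83) for Nmnat3, and Mc5r (0.94), Trafd1 (0.93) and Xdh (0.92) for Nampt. These are rankings over libraries that share treatment and composition, and carry no test.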

How the data were processed

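RNA was sequenced from 42 livers and 42 eWAT samples, and the groups were taken from the sample labels. The deposited gene values, in the unit of a signal, are reads per gene that the authors divided by 1 factor per library. In every library 100% of them came out as whole multiples of the smallest value (tolerance 0.01), which recovers the reads. The deposited TPM values were made by the authors from the same libraries. The submitters' processing notes list STAR 2.5.2b, RSEM 1.3.0, featureCounts 1.5.1 and FastQC 0.11.5. The labels and the study's methods describe the library kit and sequencer differently, so neither the read type nor strandedness is stated here. Symbols were found for 48348 of the 48794 identifiers, and gene positions and exon overlaps were taken from GENCODE M21 (GRCm38).

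The gene values of each tissue were fitted over all 7 groups with limma 3.58.1/voom (offset 0.5) in R 4.3.3, with TMM factors from edgeR 4.0.16, filterByExpr, and Benjamini-Hochberg adjustment over 15964 liver and 18536 eWAT genes. Tissues were compared by an interaction in a joint fit of recovered reads. Alternatives were RLE factors, library size alone, no filter, at least 10 in every library, edgeR's quasi-likelihood test and DESeq2 1.42.0 on recovered reads, limma on log2(TPM + 1) and log2(TPM + 0.1), only the groups compared, and each library left out in turn. Leaving out eWAT libraries over 1000 TPM of hepatocyte markers (9 libraries) or over 500 TPM of B and plasma cell markers (2 libraries) was chosen after seeing the data. The limma/voom, edgeR and DESeq2 fits were tested on simulated liver reads, and the interaction and the other steps were not. The members, the other pathway genes and the marker lists were chosen with earlier results of these data known. All members are described, other pathway genes are named where they passed at 30 nmol/kg BI456906, and the 3 most correlated genes are given for the 3 members with the largest passing change in each tissue, except 1 that is not reported here.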

Additional observations from a re-analysis of the deposited data

Results flagged for a closer look

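Of 140 sets of 6 libraries (10 genes, 7 groups, both tissues), 10 held a library that stood apart from the other 5, with a gap over 0.625 of the whole range, and chance gives about 1 in 20. In eWAT these were high values of Nampt in library 23 at 20 nmol/kg BI456906 (75.06 TPM) and library 39 at 100 nmol/kg semaglutide (79.76 TPM), of Nmnat1 in library 28 at 30 nmol/kg (11.2 TPM), of Nmnat3 in library 12 at 3 nmol/kg (9.70 TPM), and of Cd38 in vehicle library 3 (19.12 TPM) and library 40 at 100 nmol/kg semaglutide (42.5 TPM). Low values in eWAT were those of Nadsyn1 in library 35 at 20 nmol/kg semaglutide (6.87 TPM), of Nmrk1 in library 19 at 20 nmol/kg BI456906 (7.25 TPM) and of Aox1 in library 29 at 30 nmol/kg (27.86 TPM). In liver it was Aox3 in vehicle library 48 (52.02 TPM).

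The response differed between liver and eWAT, by the interaction test, for 6 members at 30 nmol/kg BI456906, against 46.3% of all genes. The liver change minus the eWAT change was -0.92 for Nampt, -0.37 for Nmnat1, -1.55 for Nmnat3, -0.77 for Nadsyn1, -0.57 for Nmrk1 and -1.70 for Aox3 on the log2 scale. At 100 nmol/kg semaglutide it was -1.43 for Nmnat3, -0.55 for Nadsyn1 and -0.47 for Nmrk1. The interaction passed for 33.8% of all genes at that dose. Without the eWAT libraries over 1000 TPM of hepatocyte markers, Nmnat1 at 30 nmol/kg BI456906 no longer passed (-0.26, FDR 0.0622). In that fit Nadsyn1 was lost at 100 nmol/kg semaglutide (-0.39, FDR 0.0696), and Qprt was gained there (-1.05, FDR 0.034).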

How the results depend on the processing

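Of 56 calls on the 10 members, 32 were kept under every alternative and left-out library and 24 were lost under at least 1. In liver, the count at 3 nmol/kg BI456906 (1) was 2 with library size alone and with at least 10 in every library, and 0 with only the groups compared. At 10 nmol/kg (5) it was 2 with no filter, 0 on either TPM scale and 3 with only the groups compared, and at 20 nmol/kg (7) it was 3 on either TPM scale. In eWAT, DESeq2 gave 1 at 3 nmol/kg and 1 at 10 nmol/kg in place of 0, and edgeR and DESeq2 gave 2 at 20 nmol/kg in place of 1. Without the libraries high in hepatocyte markers, the eWAT counts were 0 at 20 nmol/kg, 1 at 30 nmol/kg (4) and 1 at 100 nmol/kg semaglutide (2), those of the other pathway genes were 3 (10) and 1 (9) at the highest doses, and Qprt at 30 nmol/kg was the 1 value among those that had passed to change direction (0.19). With only the groups compared, the counts at 100 nmol/kg semaglutide were 1 for the members and 2 for the other genes. Without the libraries high in B and plasma cell markers, 2 passed at 20 nmol/kg semaglutide in place of 1. Leaving out 1 library gave 1 to 2 and 2 to 4 calls in liver at 3 and 10 nmol/kg. At 20 and 30 nmol/kg BI456906 it gave 5 to 8 and 6 to 9. It gave 5 to 7 and 4 to 6 with semaglutide at 20 and 100 nmol/kg, and 7 to 9 for the dose slope. In eWAT it gave 0 to 1 at 10 nmol/kg and 1 to 2 at 20 nmol/kg of either compound. There it gave 1 to 3 at 100 nmol/kg semaglutide, and 3 to 4 at 30 nmol/kg and for the slope. Fits without libraries have fewer samples, and the other causes were not tested. Shares of all genes are not given for the counts under alternatives. No paired analysis was possible because the labels do not say which liver and eWAT libraries come from the same mouse. Nmnat3 in liver, at 1.38 to 4.85 TPM, and Qprt and Aox3 in eWAT rest on the fewest reads.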
